A study of Drosophila melanogaster
Mus musculus with 21 samples.

Results

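Canonical Polycomb repressive complex 1 (PRC1) is the form of the complex that carries a CBX protein, 1 of the PCGF proteins PCGF2 or BMI1, and a PHC protein around the catalytic core of RING1A or RING1B. The 9 genes named for it were Bmi1, Pcgf2, Cbx2, Cbx6, Cbx7, Cbx8, Phc1, Phc2 and Phc3, taken by symbol from 5 tables of 20633 entries each. Of these, 8 had an entry in all 5 tables and Cbx6 was not analysed here. Where a symbol had several entries, as Phc2 did with 3 transcripts, the entry with the most reads in untreated cells was taken.

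As background, the CBX subunit binds histone H3 trimethylated at lysine 27, the mark made by Polycomb repressive complex 2 (PRC2), and so brings canonical PRC1 to chromatin that PRC2 has marked. PHC proteins hold a SAM domain that can polymerise, and with CBX2 they are known for compacting chromatin and for contacts between distant Polycomb sites. RING1A and RING1B add ubiquitin to histone H2A, although variant forms of PRC1, which carry RYBP or YAF2 in place of a CBX, do most of this in stem cells. In mouse embryonic stem cells Cbx7 and Pcgf2 are known as the main CBX and PCGF genes of the canonical complex, and Bmi1, Cbx2 and Cbx8 are known for rising on differentiation.

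The samples were nuclear RNA from mouse embryonic stem cells, 21 libraries in 7 groups of 3, mixed before extraction with Drosophila SG4 cells as a spike-in reference. The PRC1deg line, derived from the stem cell line E14, carried Tir1 (the plant receptor that auxin acts through) at Rosa26, was labelled Ring1A-/-, a deletion of both alleles, and had RING1B fused to an auxin-inducible degron (AID-Ring1B). All 5 PRC1deg groups, the untreated one included, shared this genotype, and 4 of them received 500 µM auxin, for 2, 4, 8 or 24 h. The PRC2deg line, also from E14, carried Pcgf2-HaloTag and dTAG-Suz12 in both of its groups, of which 1 received 100 nM dTAG-13 for 2 h and the other nothing. Pcgf2 was thus itself an engineered allele in the PRC2deg cells. Although PRC1deg cells are labelled Ring1A-/-, the entry of Ring1, the gene of RING1A, held 52.0 reads per kilobase (202 reads) in untreated PRC1deg cells, so RNA was counted at this gene in the line labelled as lacking it. The same entry had 20.3 reads per kilobase in the separately normalised PRC2deg table, and which part of the gene was deleted is not stated in the labels. The libraries of a group are labelled as biological triplicates of 1 genotype, and the sources used here do not give the number of clones behind them.

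The authors deposited, per entry, a mean level in untreated cells and a log2 fold change with an adjusted p for each comparison, without any standard error or library value, so that no spread between replicates can be shown. An entry was called higher or lower where its adjusted p was under 0.05 and its fold change over 1.5 (0.585 on the log2 scale). Levels are given as normalised reads per kilobase of the entry, whose lengths are of gene-body size with introns counted, and untreated reads are that level times the length. Over all entries the untreated means sum to 30450536 reads in PRC1deg and 29474239 in PRC2deg. A gene with several entries is counted once for each, so these are not totals of distinct reads, and depth per library is unknown. Of 8 stem cell markers, 7 had entries, with Pou5f1 at 1640, Sox2 at 3585 and Nanog at 1674 untreated reads per kilobase in PRC1deg cells, and 0 of the 7 were called at any time of auxin. Of 8 markers of other cell types, 2, 2, 3 and 3 were higher at 2, 4, 8 and 24 h, namely Sox17 and Cdx2 throughout and Col1a2 at 8 and 24 h. At 8 h Afp had no adjusted p, so 7 of the 8 were tested. Over all tested entries 5.55%, 16.1%, 25.7% and 11.5% were higher at these times, and 0.255%, 0.13%, 0.0869% and 0.612% lower. The summed untreated level of the markers of other cell types was 250.2 reads per kilobase, most of it from Tubb3 (120.3) and Thy1 (116), with Cdx2 alone listed at 0. That of the stem cell markers was 10464, and the part of the markers of other cell types in the results was not tested. The tables as a whole lean upwards: over the 13499 entries that had at least 50 untreated reads, the median log2 fold change was 0.15, 0.40, 0.50 and 0.24 at 2, 4, 8 and 24 h in the authors' deposited tables. The deposited fold changes are labelled as spike-normalised, so a change common to most genes would remain in them, while centring on the median removes it. Whether the lean is such a common rise or a matter of scaling was not tested. Values relative to that median (called the median entry below) are therefore given beside the deposited ones.

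The untreated levels of the canonical subunit genes spanned a wide range. In PRC1deg cells Phc1 stood highest at 628 reads per kilobase, above 98.7% of all entries, followed by Cbx7 at 262 and Pcgf2 at 135. Cbx2 at 86.8 and Phc3 at 44.8 reads per kilobase lay in the middle of the range. The lowest levels were those of Bmi1 at 21.0, Phc2 at 10.5 and Cbx8 at 6.07 reads per kilobase. Bmi1 was low only beside the other subunit genes, since it lay above 57.5% of all entries, and Cbx8 lay above 42.2%. These levels correspond to 13766 untreated reads for Phc1, 201 for Bmi1 and 15.1 for Cbx8, so that 7 of the 8 genes had 50 or more reads and Cbx8 rests on the fewest.

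Among the canonical subunit genes analysed here, 1 gene thus held most of the summed level of its PCGF, CBX or PHC group in untreated PRC1deg cells. Cbx6 was not analysed, so the CBX shares are of 3 genes and not of the whole family. The PCGF shares are likewise only of the 2 PCGF genes of canonical PRC1. In the same cells the variant PRC1 genes Pcgf6, Pcgf3, Pcgf1 and Pcgf5 stood at 107, 66.8, 66.7 and 8.34 reads per kilobase. Of the summed level per kilobase of Pcgf2 and Bmi1, Pcgf2 made up 86.6%. Of that of Cbx2, Cbx7 and Cbx8, Cbx7 made up 73.8% and Cbx8 1.71%. Of that of the PHC genes, Phc1 made up 91.9%, Phc3 6.55% and Phc2 1.54%. The Phc2 value depends on the transcript: with its shortest entry, at 29.0 reads per kilobase, Phc2 would stand above Bmi1 and make up 4.13%, and the ratio of Phc1 to Phc2 would be 21.7 in place of 59.8. These are shares of nuclear RNA per kilobase, with introns counted, and not of protein.

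The PRC2deg line gave nearly the same order of levels before treatment. Phc1 (392 reads per kilobase), Cbx7 (203) and Pcgf2 (92.4) were again highest, and Phc2 (7.66) and Cbx8 (4.29) lowest. Cbx2 at 36.8, Bmi1 at 36.5 and Phc3 at 35.8 reads per kilobase lay so close together that their order cannot be told without the spread between libraries. The level of Pcgf2 was 6.46 times that of Bmi1 in PRC1deg cells and 2.53 times in PRC2deg cells, and that of Cbx7 was 3.02 and 5.52 times that of Cbx2. The lines also differed in genotype, library kit and read length, these ratios come without replicates, and their difference was not tested.

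**Figure D1:**
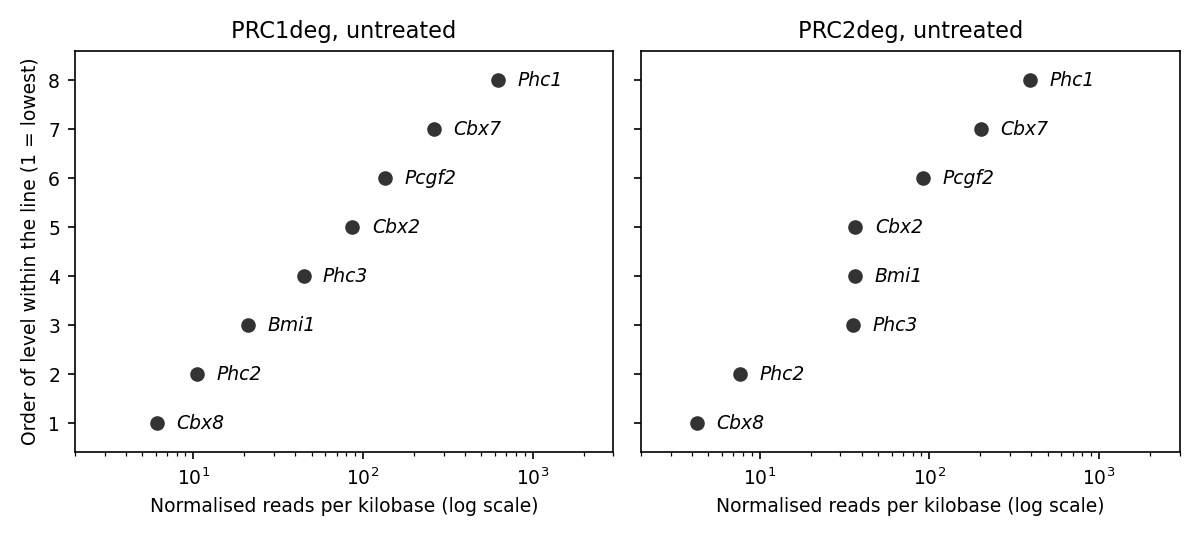
Untreated level of each canonical PRC1 subunit gene in normalised reads per kilobase (log axis), ordered from lowest to highest within each line; each point is the authors' mean over 3 untreated libraries. Phc1, Cbx7 and Pcgf2 take the highest 3 places and Phc2 and Cbx8 the lowest 2 in both lines, and Bmi1 stands at 21.0 in PRC1deg and 36.5 in PRC2deg.

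Within 2 h of auxin, RNA of Bmi1 and Cbx8, 2 of the 3 subunit genes with the lowest levels, was higher. None of the 3 highest genes, Phc1, Cbx7 and Pcgf2, was called higher at any time. A low level did not go with a rise in each case, since Phc2, below Bmi1 in level on the entry used, had 0.06 at 2 h (adjusted p = 0.87) in the authors' deposited table. In bulk RNA such a change can come from more RNA in each cell or from more cells with the RNA, and these cannot be told apart. At 2 h of auxin 2 of the 8 genes were called higher and 0 lower, where 5.55% of all tested entries were called higher and 0.255% lower. At 4 h 3 were higher and 0 lower (16.1% and 0.13% of all entries), and at 8 h 3 were higher and 0 lower (25.7% and 0.0869% of all entries). At 24 h 3 were higher and 1 lower, where 11.5% of all entries were higher and 0.612% lower. The median log2 fold change of the 8 genes was 0.18, 0.29, 0.58 and 0.26 at 2, 4, 8 and 24 h, beside 0.11, 0.32, 0.44 and 0.19 over all entries with a fold change. Relative to the median entry, the medians of the 8 genes were 0.02, -0.11, 0.08 and 0.02. The calls came from single genes, Bmi1 and Cbx8 at each time, Cbx2 from 4 h on and Phc1 at 24 h. The 4 auxin comparisons share the same 3 untreated libraries and are not independent of each other.

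**Figure D2:**
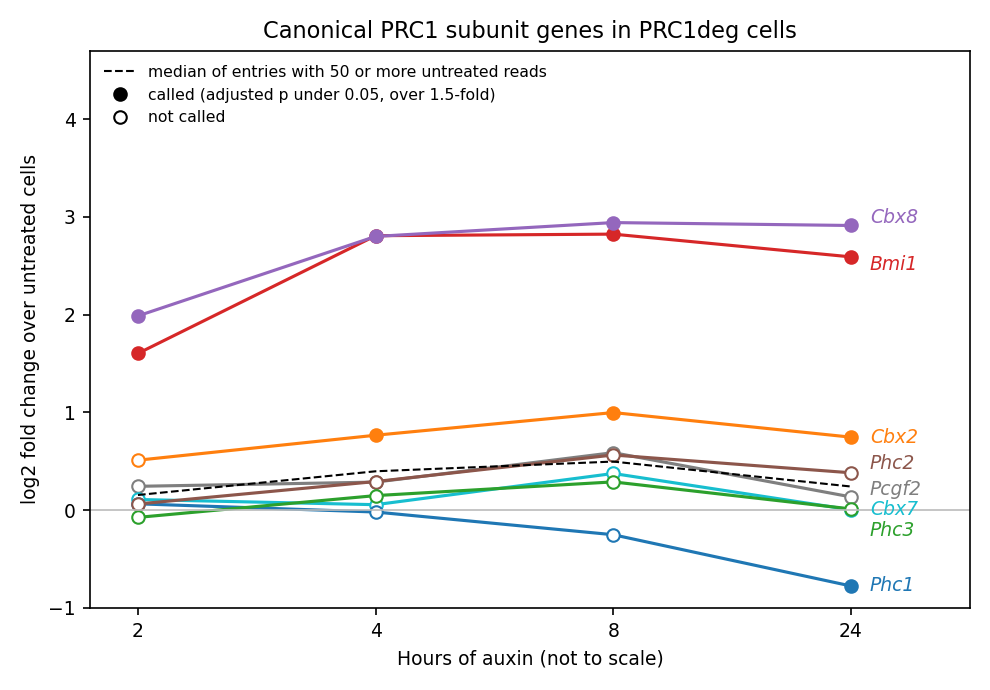
Log2 fold change over untreated PRC1deg cells of 8 canonical PRC1 subunit genes by hours of auxin (axis not to scale), from the authors' deposited tables, without error bars because none were deposited; filled points were called and open ones were not, and the dashed line is the median over entries having at least 50 untreated reads. Cbx8 and Bmi1 lie between 1.60 and 2.94 at all 4 times, Cbx2 between 0.51 and 1.00, and Phc1 falls to -0.78 at 24 h.

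Bmi1 encodes PCGF4, the alternative to PCGF2 in canonical PRC1 and a repressor of the Cdkn2a locus in mouse cells. Its log2 fold change was 1.60, 2.81, 2.82 and 2.59 at 2, 4, 8 and 24 h in the authors' deposited tables, a fold of 3.04 that grew to between 6.03 and 7.08 at the later times. The adjusted p for Bmi1 was 3.03e-06, 5.21e-18, 3.34e-18 and 3.21e-15, in the same order, in those deposited tables. Most of the change was present by 4 h: the log2 fold change differed by 1.20 between 2 and 4 h, by 0.02 between 4 and 8 h and by -0.23 between 8 and 24 h, differences that were not tested. Relative to the median entry, Bmi1 stood at 1.45, 2.41, 2.33 and 2.35. It lay above 97.5% of tested entries at 2 h and above 98.1% at 24 h.

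Pcgf2, which encodes MEL18 and is known as the main PCGF gene of canonical PRC1 in stem cells, was not called at any time. Its log2 fold changes were 0.24, 0.29, 0.59 and 0.13 at 2, 4, 8 and 24 h in the authors' deposited tables, with adjusted p of 0.60, 0.34, 0.050 and 0.71. The value at 8 h was just past 1.5-fold (1.503), but its adjusted p of 0.0503 was just above the threshold. Relative to the median entry Pcgf2 stood at 0.09, -0.11, 0.09 and -0.11, so that the direction at 4 and 24 h depends on the scaling.

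When the authors' untreated means were multiplied by their fold changes, the 2 PCGF genes of canonical PRC1 came close to each other in level. Bmi1 went from 21.0 reads per kilobase untreated to 63.7, 147, 148 and 126 at 2, 4, 8 and 24 h. Pcgf2 went from 135 to 160, 165, 203 and 149 reads per kilobase at the same times. The ratio of Pcgf2 to Bmi1 accordingly went from 6.46 to 2.52, 1.13, 1.37 and 1.18. Bmi1 made up 13.4% of their summed level before auxin and 47.1% at 4 h. These treated levels carry the fold changes' unknown error, and the ratios were not tested.

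Commd3 lies directly upstream of Bmi1 on the same strand in the mouse genome and encodes a COMM domain protein. Its log2 fold change was 0.48 at 2 h, where it was not called (adjusted p = 0.21), and 1.03, 1.12 and 1.25 at 4, 8 and 24 h, where it was called higher, in the authors' deposited tables. At each of the 4 times its fold was below that of Bmi1, and at 24 h Commd3 stood at 136 reads per kilobase against 126 for Bmi1. The part that transcripts running from Commd3 into Bmi1 might have in the Bmi1 reads was not tested.

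Cbx8 encodes a chromodomain subunit that is scarce in stem cells and binds trimethylated H3 lysine 27. Its log2 fold change was 1.99, 2.80, 2.94 and 2.91 at 2, 4, 8 and 24 h in the authors' deposited tables, or 3.96-fold at 2 h and 6.97-, 7.68- and 7.53-fold later. The adjusted p for Cbx8 was 4.62e-05 at 2 h and 8.85e-10, 1.14e-10 and 3.43e-10 at the later times in the deposited tables. Its estimated level went from 6.07 reads per kilobase to 24.1 at 2 h and 45.7 at 24 h, so that after the rise it remained below Cbx2 and Cbx7. From 8 to 24 h its log2 fold change differed by only -0.03, and by 24 h it lay above 98.6% of tested entries.

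Cbx2, whose protein compacts nucleosomes through a stretch of basic residues, was already expressed and changed less. It stood at 0.51 at 2 h, which was not called (adjusted p = 0.18), and rose at the later times with 0.77, 1.00 and 0.75 (adjusted p = 0.019, 0.0013 and 0.023) in the authors' deposited tables. Its highest fold was 2.00 at 8 h. Relative to the median entry Cbx2 stood at 0.36, 0.37, 0.50 and 0.51, under 1.5-fold at each time, so that none of its calls held with that scaling. Its direction was the same under both scalings.

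Cbx7, known as the main CBX gene of canonical PRC1 in stem cells, was not called. Its log2 fold changes of 0.11, 0.06, 0.37 and 0.00 at 2, 4, 8 and 24 h in the authors' deposited tables had adjusted p of 0.80, 0.88, 0.20 and 0.99. They lay below the median entry by 0.05, 0.34, 0.12 and 0.24, so that the sign of the Cbx7 value depends on the scaling at all 4 times. With 4411 untreated reads, Cbx7 was among the more deeply counted of these genes. In estimated level Cbx7 stayed the highest of the 3 CBX genes analysed, at 282, 272, 340 and 263 reads per kilobase. Its excess over Cbx8 went from 43.1 times in untreated cells to 11.7 times at 2 h and 5.74 times at 24 h. Cbx8 accordingly made up 10.1% of the summed level of the 3 CBX genes at 24 h and Cbx7 57.9%, which are estimates without a test.

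**Figure D3:**
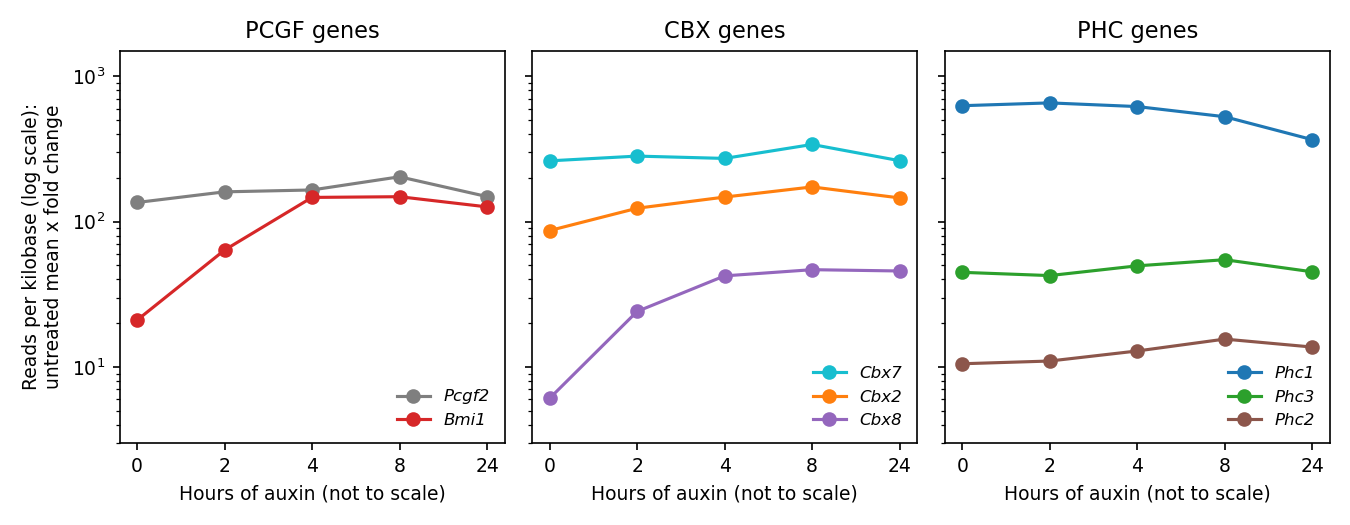
Estimated level in PRC1deg cells (reads per kilobase, log axis) of the canonical PCGF, CBX and PHC genes analysed, by hours of auxin (axis not to scale), calculated as the authors' untreated mean times their fold change, with no error available. Bmi1 goes from 21.0 to 126 while Pcgf2 goes from 135 to 149, Cbx8 goes from 6.07 to 45.7 below Cbx7 and Cbx2, and Phc1 goes from 628 to 367.

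No PHC gene was called higher on the entries used, and Phc1 was lower at 24 h. Phc1, the PHC gene that prevails in stem cells, stood at 0.06, -0.02 and -0.25 at 2, 4 and 8 h, none of them called (adjusted p = 0.87, 0.95 and 0.34), and fell to -0.78 at 24 h (adjusted p = 0.0090) in the authors' deposited tables. Untreated cells therefore had 1.71 times as much Phc1 RNA as cells after 24 h. Relative to the median entry the values were -0.09, -0.42, -0.75 and -1.02, and only that at 2 h has another sign than the deposited one. In estimated level Phc1 went from 628 to 656, 619, 527 and 367 reads per kilobase, and at 24 h it was still 8.12 times as high as Phc3 and 26.8 times as high as the longest Phc2 entry.

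Lower calls were few at 24 h at any level. They made up 0.612% of all tested entries and 0.169% of those with 100 or more untreated reads per kilobase. Of the 108 entries called lower at that time, Phc1 had the second highest untreated level. Of 267 entries with an untreated level at or above that of Phc1, 2 were lower, Phc1 among them, and 7 were higher. In the library names among the labels the 24 h libraries have S numbers of their own, apart from the run of S numbers shared by the other PRC1deg libraries, and whatever batch this may mark cannot be told apart from the length of treatment. The 7 measured stem cell markers had a median log2 fold change of 0.16 at 24 h in the authors' deposited table, with 0 called.

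Phc3 stood at -0.07, 0.15, 0.29 and 0.01 at 2, 4, 8 and 24 h in the authors' deposited tables and was not called, with adjusted p from 0.33 to 0.98. Relative to the median entry all 4 of its values were below 0, between -0.21 and -0.25. Phc2 stood at 0.06, 0.29, 0.56 and 0.38, also not called, with an adjusted p of 0.057 at 8 h in the deposited table. The choice of transcript mattered for Phc2: the entry used, NM_001195130, covers 98180 bases and held 1032 untreated reads, while NM_018774 with 64144 bases had 0.66 (adjusted p = 0.030) and NM_001195083 with 25311 bases had 0.69 (adjusted p = 0.021) at 8 h, and both of these were called higher in the authors' deposited table. The level per kilobase was 10.5 for the longest and 29.0 for the shortest of these entries. At the other times none of the 3 Phc2 entries was called.

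Among genes of different untreated level the share of calls also differed, so the level itself was set beside the results, with classes chosen after the values were seen. Of tested entries with 2 to 30 untreated reads per kilobase, the class of Bmi1, Cbx8 and Phc2, 6.59%, 17.1%, 28.4% and 13.4% were higher at 2, 4, 8 and 24 h. Of entries with 30 to 100, the class of Cbx2 and Phc3, 0.811%, 7.80%, 18.5% and 3.26% were higher at those times. Of entries with 100 or more, the class of Phc1, Cbx7 and Pcgf2, 0.237%, 11.4%, 21.2% and 2.98% were higher at those times. Bmi1 and Cbx8 were called at all 4 times in a class where most entries were not, while Phc2 in the same class was not. At 24 h 0.169% of the entries with 100 or more were lower, which is the class of Phc1. The middle and the tail of thinly counted entries differed: at 2 h of auxin entries under 10 reads ran from -0.01 to 0.05 between the quartiles and entries with at least 50 reads from 0.05 to 0.25, but 11.9% of tested entries under 2 reads per kilobase were called higher at 2 h, the highest share of the classes. The 95th percentile of the log2 fold change at 2 h was 2.12 in the bin around 0.178 reads per kilobase and 0.37 in that around 562. In the bin of Cbx2, around 56.2, it was 0.41 at 2 h and 0.60 at 24 h, below the Cbx2 values of 0.51 and 0.75.

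**Figure D4:**
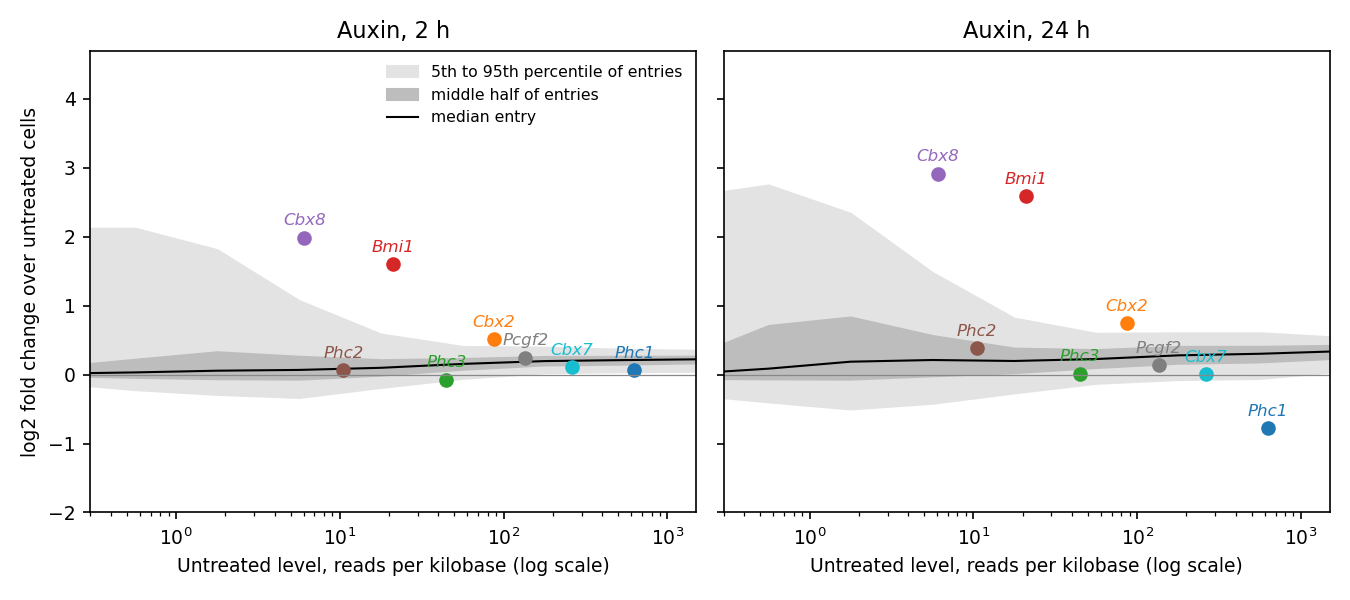
Log2 fold change against untreated level (reads per kilobase, log axis) at 2 h and 24 h of auxin; grey areas give the 5th to 95th percentile and the range between the quartiles of all entries in bins of level, the line their median, and coloured points are the 8 canonical PRC1 subunit genes. Cbx8 (1.99 and 2.91), Bmi1 (1.60 and 2.59) and Cbx2 (0.51 and 0.75) lie above the 95th percentile for their level at both times. Phc3 (-0.07) lies below the 5th percentile at 2 h and Phc1 (-0.78) at 24 h.

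The genes whose course was most like that of Bmi1 and Cbx8 were found by distance. By Euclidean distance over the 4 auxin log2 fold changes, among 12541 symbols with 50 or more untreated reads, the nearest to Bmi1 were Zfhx4 (distance 0.18), Meis1 (0.26) and Pde3a (0.29). Nearest to Cbx8 were Lmx1a (0.21), Tbx15 (0.26) and Eomes (0.35). Zfhx4, a zinc finger homeobox gene, had 1.504, 2.92, 2.75 and 2.65, and Lmx1a, a LIM homeobox gene of the midbrain, had 1.85, 2.79, 3.07 and 2.81 at 2, 4, 8 and 24 h in the authors' deposited tables. Likeness of these 4 values, which share the untreated libraries, is a description only.

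Other Polycomb genes were counted by lists of the complexes. Of Scmh1, Scml2, Scml4, Rnf2 and Ring1, 5 genes of the core or of canonical PRC1, 0, 1, 2 and 0 were higher at 2, 4, 8 and 24 h and 0 lower, and with centring 0 were called at any of these times. Over all tested entries 5.55%, 16.1%, 25.7% and 11.5% were higher as deposited and 5.46%, 9.81%, 10.7% and 9.67% with centring, which is the background for this and the next counts. Ring1 was not called, at 0.06, 0.00, 0.31 and 0.43 in the authors' deposited tables. Scmh1, which encodes a SAM domain partner of the PHC proteins, was called higher at 8 h with 0.74 (adjusted p = 0.037), and Rnf2, which encodes RING1B itself, at 4 h with 0.94 (adjusted p = 0.012) and at 8 h with 0.74 (adjusted p = 0.040) in the authors' deposited tables. The degron removes the RING1B protein, so the Rnf2 RNA does not check its loss. Of 26 variant PRC1 genes, 2, 7, 11 and 5 were higher and 0 lower, and with centring 2, 3, 3 and 2. As deposited this is 7.69%, 26.9%, 42.3% and 19.2% of the list. Called at every time, with and without centring, were Bcor, a subunit of the PCGF1 complex, with 1.56, 2.00, 2.09 and 1.73, and E2f6, of the PCGF6 complex, with 1.05, 1.54, 1.62 and 1.19 in the authors' deposited tables.

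Of 12 PRC2 genes, 0, 3, 2 and 1 were higher and 0 lower, and with centring 0, 0, 1 and 1. As deposited this is 25% of the list at 4 h and 16.7% at 8 h, where 16.1% and 25.7% of all tested entries were higher. Ezh2, the catalytic subunit, was higher at 4 h with 0.72 (adjusted p = 0.049), and the accessory gene Phf19, with 89.0 untreated reads, was higher from 4 h on with 0.89, 1.48 and 1.12 in the authors' deposited tables. The median log2 fold change at 8 h was 0.58 for the canonical subunit genes, 0.58 for the variant PRC1 genes and 0.45 for the PRC2 genes. The highest single value at 8 h was 2.94 (Cbx8) among the canonical subunit genes, 2.09 (Bcor) among the variant PRC1 genes and 1.48 (Phf19) among the PRC2 genes. A difference between the lists was not tested.

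In PRC2deg cells, 2 h of dTAG-13 gave no call for any canonical subunit gene. By the authors' DESeq2 values 0 of the 8 genes and 0% of the 19506 tested entries were called, and the adjusted p of each of the 8 was 0.999956 in the authors' deposited table. That table holds no unadjusted p, and its adjusted values leave room for at most 975 entries with an unadjusted p under 0.05. The log2 fold changes of the 8 genes lay within 5.11e-06 of 0 and those of all entries within 0.000985, so they give no size to compare with the auxin tables. Bmi1 and Phc3 had values above 0 and the other 6 below 0, at sizes that give no measure of change. These values do not show that RNA of the 8 genes stayed the same. Whether Bmi1 and Cbx8 respond differently to loss of the RING1B protein and to 2 h of dTAG-13 was not tested. The lines differed in genotype, library kit and read length, and each has a table of its own.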

How the data were processed

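Per the labels' protocols, nuclei were isolated, ribosomal RNA was depleted and directional paired-end libraries were sequenced. Bowtie2, STAR, SAMtools, bedtools and DESeq2 with builds mm10 and dm6 are named in the submitters' processing notes, without versions. Per the file headers, each of the 5 tables holds the entry's length, a mean untreated signal headed as RPKM, a log2 fold change and adjusted p-values. The deposited signal, times length, sums over all entries, with several for some genes, to 30450536 and 29474239 reads in the PRC1deg and PRC2deg tables. It is thus not scaled to library size as an RPKM is and was used as normalised reads per kilobase. The deposited log2 fold changes and p-values were used across all genes as they stand, since values per library were not used here. Entries without an adjusted p were not counted as tested. Centring subtracted the median log2 fold change over entries having at least 50 untreated reads. The call and entry rules were run on simulated data with planted values well past the thresholds, which checks the code and not the calls made here. Python 3.11.15, numpy 2.4.6, pandas 2.3.3 and matplotlib 3.10.9 were used.

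The members and lists were chosen with earlier results of these data known. Named were all 8 genes with an entry, Scmh1, Rnf2, Ezh2, neighbours and the 3 genes of most like course for Bmi1 and Cbx8. Of the neighbours only Commd3 is given, from background knowledge, because no mouse annotation was used here. Bcor, E2f6, Phf19 and markers were named after their values were seen. No mouse sequences or coordinates were used here. A further gene of the fixed lists is not reported here.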

Additional observations from a re-analysis of the deposited data

How the results depend on the processing

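Counts of called canonical subunit genes were compared under a 2-fold threshold, an adjusted p alone, an adjusted p under 0.01, centring on the median, the longest entry per symbol, 50 or more untreated reads and, added after the values were seen, the shortest entry. All were within 1.5 times of the reported counts except 1 gene in place of 2 at 2 h with 50 or more reads, where Cbx8 is left out by its depth, and 2 genes in place of 4 at 24 h with the 2-fold threshold, which leaves out Cbx2 and Phc1. Bmi1 was called at all 4 times of auxin under each of these settings, and Cbx8 under each except the minimum of 50 reads. Centring took Cbx2 below 1.5-fold at 4, 8 and 24 h (0.37, 0.50 and 0.51), and the shortest entry brought Phc2 past the threshold at 8 h (0.69). Centring turned the sign of 12 uncalled values: Cbx7 at 2, 4, 8 and 24 h (-0.046, -0.34, -0.12 and -0.24), Phc3 at 4, 8 and 24 h (-0.25, -0.21 and -0.23), Pcgf2 at 4 and 24 h (-0.11 and -0.11), Phc2 at 2 and 4 h (-0.092 and -0.10) and Phc1 at 2 h (-0.090). The longest entry gave the reported value for all 8 genes. No paired analysis was possible because the tables hold no values per library, and leaving out replicates was not run for the same reason. Cbx8, with 15.1 untreated reads, is the gene whose fold change depth limits most.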
